A study of Mus musculus with 16 samples.

Results

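Epididymal white fat (eWAT) of K107R K107R homozygote mice was compared with that of wild-type (WT) mice, all on vehicle, gene by gene. K107R names a mutant form of the nuclear receptor PPARg in which arginine takes the place of a lysine that accepts a SUMO group. The comparison rests on 4 of the 16 samples of the series, 2 K107R and 2 WT libraries that carry the replicate numbers 1 and 2. Per the labels' protocols, all mice ate chow for 10 weeks and a high-fat diet (60% of calories) for the next 19 weeks. The 4 samples of this comparison come from mice gavaged for 1 week with 1% methylcellulose, the vehicle. The other groups used here are eWAT of WT and K107R mice given rosiglitazone, a PPARg agonist, at 10 mg/kg in the same vehicle, and inguinal fat (iWAT) of WT and K107R mice on vehicle, with 2 libraries each. The labels give primary tissue and do not say whether the 2 libraries of a group came from separate mice. The p-values thus measure only a spread between libraries of a group, pooled over the 8 groups of 2, and it may be technical. In the main fit it is the spread left after a shift shared by all libraries of the same replicate number is taken out.

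Members were chosen by a rule on the table of 14023 genes. A gene was set aside if each of the 6 other eWAT libraries had it under 1 FPKM or under 1% of its mean in the K107R vehicle libraries. The aim is to keep RNA found in those libraries alone out of the description of fat. Genes under 1 FPKM in every eWAT library are set aside as well. FPKM, fragments scaled by transcript length and library size, is a level per length. A low gene that reaches 1 FPKM in eWAT of WT vehicle alone is kept. One that does so in K107R vehicle alone is set aside. Among low genes the rule thus favours lower over higher ones in counts over kept genes. The rule set aside 960 genes and kept 13063, of which 12996 passed the filter on low values (at least 1 FPKM in at least 2 of the 16 libraries) and 67 did not. Differences are K107R minus WT on the scale log2(FPKM + 1), which understates the change of low genes, and a gene is said to pass, or to be higher or lower, at a Benjamini-Hochberg adjusted p under 0.05 in a limma fit over all 16 libraries with the replicate number as a block.

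PPARg is the receptor that drives the formation of fat cells and their storage of triglyceride, and it pairs with a retinoid X receptor on DNA. It also lowers the output of inflammatory genes in macrophages and fat cells. Attachment of SUMO, a small protein, to the receptor has been tied to that repression and to weaker activation of its targets. The levels below do not show which of these, if any, involves the lysine changed in K107R. White fat on a high-fat diet takes up macrophages, lymphocytes and mast cells, so a piece of eWAT holds RNA of fat cells and of immune cells side by side. In such bulk samples, fewer cells of a type and less RNA per cell cannot be told apart.

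The receptor gene itself did not pass. Pparg (chromosome 6, 115360951 to 115490399, GRCm38) was at 89.4 and 73.4 FPKM in WT and 84.01 and 55.5 in K107R (libraries 1 and 2 in this order, here and below). The 2 groups overlap, with a difference of log2 -0.24 ± 0.21 SE, adjusted p = 0.49. The mutation changes a residue, which a gene-level FPKM cannot show, so this level does not check the genotype labels. Of 30 receptors, partners and SUMO pathway genes kept, 0 passed with the block or without it. At the smallest p stood the SUMO ligases Pias4 (log2 0.33, adjusted p = 0.17) and Pias3 (-0.24, adjusted p = 0.19). Defining genes of fat were high in all 4 libraries: the hormone Adipoq was at 1347 and 1484 FPKM in WT and 1199 and 1068 in K107R. The lipid droplet coat Plin1 was at 471 and 637 FPKM in WT and 523 and 953 in K107R.

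The K107R vehicle libraries also hold RNA of epididymis markers. Of 25 epididymis markers in the table, 20 were set aside, and these lay between 2.40 and 1274 FPKM in K107R and at or under 0.124 FPKM in WT, with 9 of them at 0 in both WT libraries. The highest set-aside genes were the protease inhibitors Spint4 (1078 and 1274 FPKM in the K107R libraries), Spink8 (621 and 739) and Spint5 (458 and 408), then AY761185 (518 and 579), Crisp1, a sperm-coating protein (726 and 282), and the lipocalin Lcn5 (418 and 461). Set-aside genes made up 2.96% and 1.73% of the summed FPKM of the K107R vehicle libraries, 0.0623% and 0.0543% in WT vehicle and between 0.0460% and 0.0520% in the 4 rosiglitazone eWAT libraries. Just inside the rule's limit lay Pdzk1ip1, at 15.6 and 16.6 FPKM in K107R with a highest other eWAT value of 0.930 FPKM, and just outside lay Spink2, with 1.11 FPKM. Of 24 epithelium markers tested, 15 were set aside, and of the 9 kept, 8 were higher in K107R and 0 lower (median log2 1.15; 6 higher without the block). Summed over the 26 in the table, epithelium markers were at 39.8 and 35.6 FPKM in WT vehicle. They were at 290.3 and 264.5 in the K107R libraries and between 27.7 and 45.0 in the rosiglitazone eWAT libraries. The part of this RNA in the differences of kept genes was not tested.

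**Figure D1:**
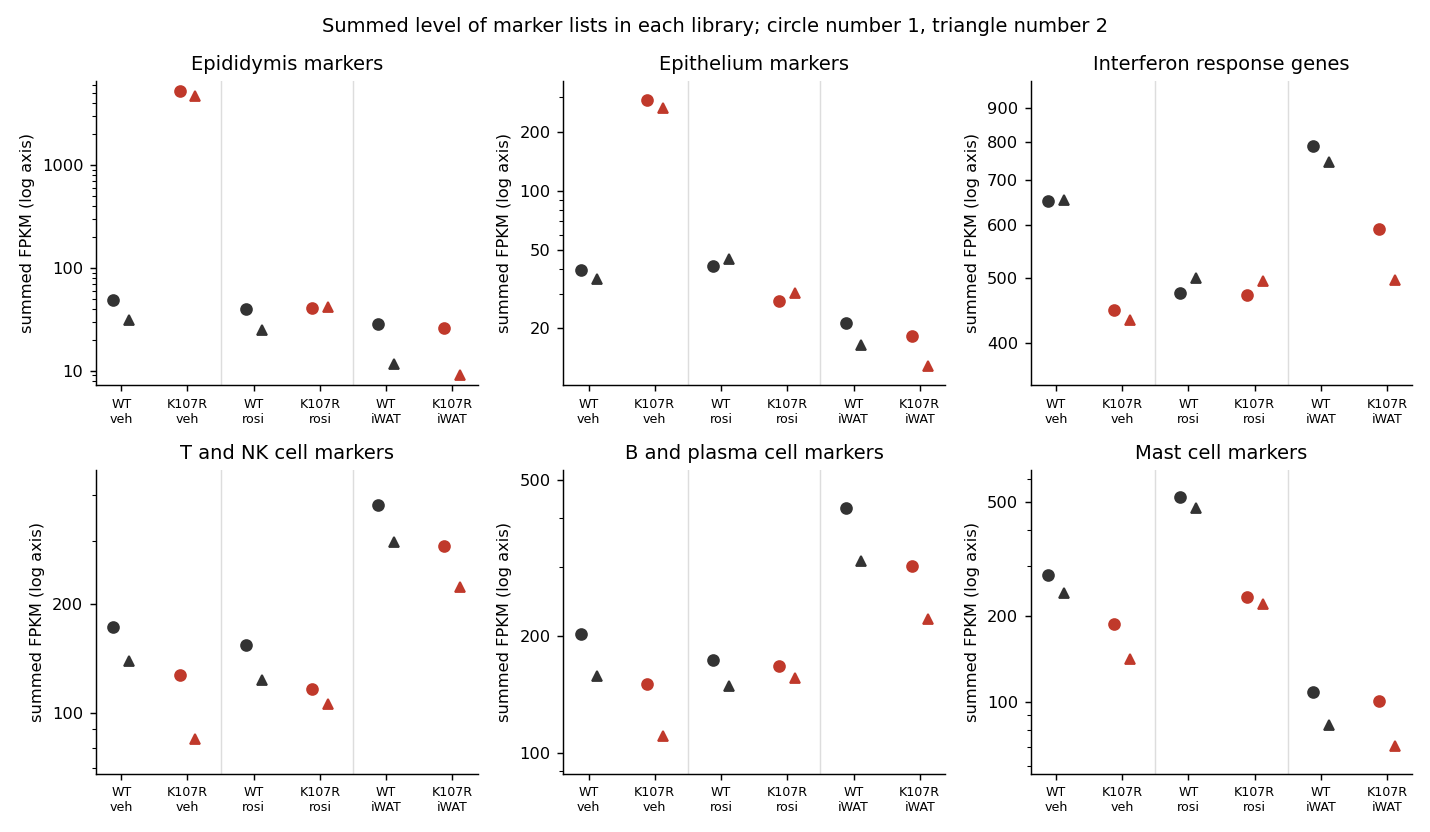
Summed FPKM of 6 marker lists (log axis), set-aside members included, in each library of eWAT vehicle, eWAT rosiglitazone and iWAT vehicle. Black is WT, red K107R, circles are number 1 and triangles number 2. Epididymis and epithelium markers stand high in the 2 K107R vehicle libraries of eWAT, while interferon, T and NK, B and plasma and mast cell lists are lower there than in the WT library of the same number.

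Among kept genes, 363 were higher in K107R and 471 lower, 2.79% and 3.62% of the 12996 tested. With set-aside genes included, 652 (4.77%) were higher and 482 (3.53%) lower. Without the replicate block 128 kept genes were higher and 60 lower, and leaving out any 1 of the 4 libraries lowered both counts by over 1.5 times, to between 158 (without WT number 2) and 216 (without K107R number 2) higher and between 88 (without WT number 2) and 194 (without WT number 1) lower. Kept genes as a whole lay at a median log2 of -0.14, -0.03 between the number 1 libraries and -0.25 between the number 2 libraries; after rescaling each library by its median ratio that median was 0.005, and 869 genes were higher and 1044 lower. Differences below are as measured, so a gene at -0.14 moved as the median gene did. All 834 genes that passed had the same sign in both pairs, against 71.2% of all kept genes, and in 793 the 2 groups did not overlap, against 30.5% of kept genes. The test that chose the 834 used these same 4 libraries, so both counts follow in part from the choice and do not show that the differences repeat.

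**Figure D2:**
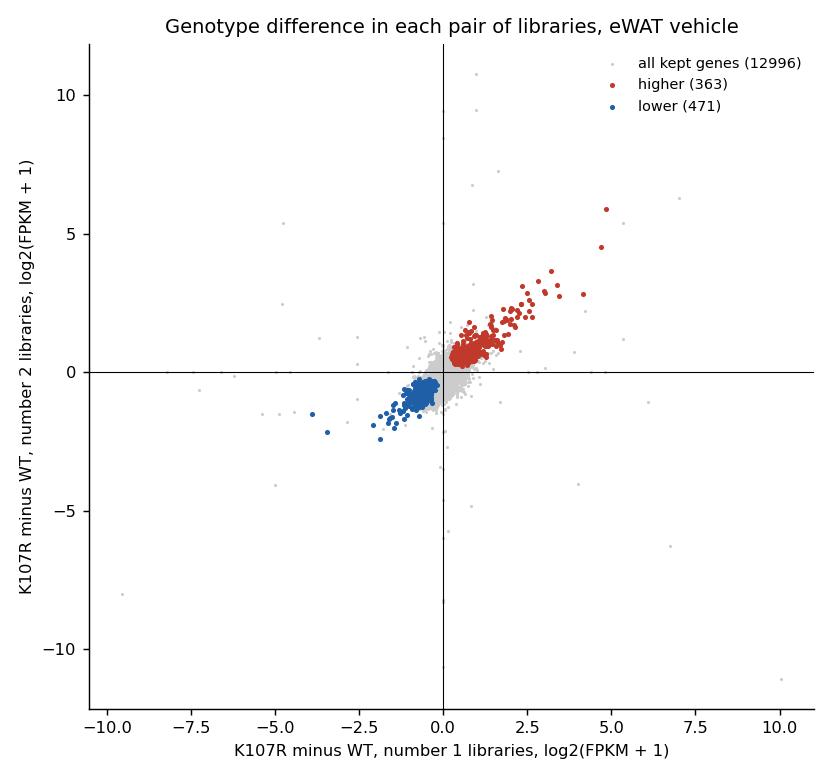
Difference between K107R and WT in the number 1 libraries (x axis) and the number 2 libraries (y axis) for 12996 kept genes, both in log2(FPKM + 1); red marks the 363 genes that passed as higher, blue the 471 that passed as lower. Coloured points lie in the quadrants where both pairs have the same sign, and the grey points include genes listed at 0 in a library.

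Fat cell genes that passed were mostly higher. Over 20 lists on fat metabolism and its control, 370 genes were kept, 29 were higher and 4 lower, with a median log2 of -0.07 against -0.14 for all kept genes. Beside this and the list counts below stand the shares over all kept genes, 2.79% higher and 3.62% lower. Of 36 PPARg targets of the mature fat cell, 8 were higher and 0 lower (median 0.16, and 0.34 after rescaling, when 13 were higher; 4 were higher without the block). The largest was Plin5, the droplet coat that ties lipid droplets to mitochondria, at 5.37 and 7.24 FPKM in WT and 30.9 and 44.6 in K107R. Both K107R libraries lie several fold above both WT libraries (log2 2.40 ± 0.091 SE, adjusted p = 4.1e-08). Rbp7, a carrier of retinol in fat vessels, was at 41.04 and 51.3 FPKM in WT and 83.8 and 112 in K107R (log2 1.06 ± 0.099 SE, adjusted p = 6.2e-05; 0.051 without the block), again with no overlap.

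Among coats and shapers of the lipid droplet, 4 of 12 were higher and 0 lower (median 0.32; 2 higher without the block). Cidec, which fuses droplets in white fat cells, was at 1590.0 and 1651 FPKM in WT and 2329 and 2727 in K107R (log2 0.64 ± 0.10 SE, adjusted p = 0.003; 0.12 without the block). Its relative Cidea, a protein of brown and beige fat cells, was at 4.45 and 3.07 FPKM in WT and 6.32 and 7.52 in K107R (log2 0.75 ± 0.16 SE, adjusted p = 0.018). Plin2, the coat found in most cell types, is also a gene of lipid-laden macrophages and gave a smaller difference (log2 0.46 ± 0.10 SE, adjusted p = 0.021; 0.66 without the block). Plin1, the main coat, and Plin4 did not pass, with log2 values of 0.36 and -0.16.

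Enzymes that supply glycerol for triglyceride were higher too, in 3 of 14 (0 lower; median 0.15; 2 higher without the block). Gpd1, which makes glycerol 3-phosphate, was at 411 and 416 FPKM in WT and 616 and 611 in K107R. Pck1, of glyceroneogenesis, was at 179 and 169 FPKM in WT and 271 and 258 in K107R. The libraries of a genotype differ by little beside the gap between genotypes (log2 0.57 ± 0.087 SE, adjusted p = 0.0026 for Gpd1, and log2 0.60 ± 0.087 SE, adjusted p = 0.0017 for Pck1). Agpat2, which adds the second fatty acid, was at 210.4 and 201 FPKM in WT and 316 and 301 in K107R (log2 0.58 ± 0.11 SE, adjusted p = 0.0083; 0.078 without the block). Of 16 lipolysis genes 0 passed. Nearest were Adora1, a receptor that restrains lipolysis (log2 0.35, adjusted p = 0.065), and G0s2, an inhibitor of fat lipase (0.42, adjusted p = 0.12). Of 16 genes of fatty acid uptake, Fabp3, a carrier of muscle and brown fat, passed (4.91 and 6.85 FPKM in WT and 9.62 and 12.9 in K107R; log2 0.84, adjusted p = 0.0044, and 0.11 without the block).

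Lipogenic genes split into a few that were higher and a majority that did not pass. Of 19, 3 were higher and 0 lower (median -0.07; 1 higher without the block). Fads2, a fatty acid desaturase, was at 11.04 and 8.44 FPKM in WT and 32.5 and 25.9 in K107R (log2 1.495 ± 0.11 SE, adjusted p = 7.4e-06), whereas in eWAT with rosiglitazone it was at 10.4 and 8.297 FPKM in WT and 9.61 and 7.67 in K107R. Acacb, the carboxylase whose product restrains fatty acid oxidation, was at 6.27 and 5.99 FPKM in WT and 9.03 and 8.53 in K107R (log2 0.46, adjusted p = 0.011; 0.11 without the block). Elovl3, an elongase of brown fat, was at 0.353 and 0.365 FPKM in WT and 2.15 and 1.12 in K107R (log2 0.93, adjusted p = 0.011; 0.16 without the block). Of 20 cholesterol genes 0 passed, with the isomerase Idi1 (log2 -0.66, adjusted p = 0.087) and the sterol carrier Stard4 (-0.56, adjusted p = 0.09) at the smallest p.

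Few oxidation and respiration genes passed, and 1 or 2 higher genes in a list is little beside the 2.79% of all kept genes. Mitochondrial fatty acid oxidation had 1 of 21 higher, the thiolase Acaa2 (96.2 and 124 FPKM in WT and 145 and 181 in K107R; log2 0.56, adjusted p = 0.004; 0.65 without the block), and a median of 0.03. Peroxisomal genes had 1 of 22, the bifunctional enzyme Ehhadh (10.2 and 8.59 FPKM in WT and 18.8 and 13.5 in K107R; log2 0.71, adjusted p = 0.017; 0.4 without the block). The respiratory chain had 2 of 36, Cox6a1 (log2 0.62) and Ndufa1 (0.61), neither of which passed without the block, and 7 were higher after rescaling. In these lists, in the citrate cycle (20 kept) and in branched-chain amino acid breakdown (21 kept) 0 genes were lower. In the last 2 none was higher either, with Mdh2 (log2 0.27, adjusted p = 0.12) and Acadsb (-0.61, adjusted p = 0.14) at the smallest p of each.

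Brown and beige genes had 5 of 15 higher and 1 lower, Kng2, a kininogen (log2 -0.58; median of the list 0.22; 3 higher without the block). Besides Cidea, Elovl3 and Fabp3, these were Cited1, a transcriptional coregulator used as a beige marker, at 0.764 and 0.336 FPKM in WT and 5.005 and 5.57 in K107R (log2 2.03 ± 0.15 SE, adjusted p = 1.1e-05), and Fgf21, a hormone of fasting and cold. Fgf21 was at 1.37 and 1.12 FPKM in WT and 3.07 and 3.03 in K107R (log2 0.85 ± 0.11 SE, adjusted p = 0.00064), and its 2 K107R values are nearly equal. Among 19 adipokines 4 were higher and 1 lower, and the same 4 passed without the block: Fgf21, Lcn2 (lipocalin 2, 14.2 and 14.8 FPKM in WT and 27.96 and 30.7 in K107R), Agt (angiotensinogen, 22.6 and 22.3 FPKM in WT and 40.6 and 38.9 in K107R) and Sfrp5, a WNT decoy (187 and 176 FPKM in WT and 310.0 and 299 in K107R). No value of a K107R library overlaps a WT value in these 4. The lower one was Rbp4, the retinol carrier of blood, at 155 and 139 FPKM in WT and 110.2 and 94.6 in K107R (log2 -0.52, adjusted p = 0.0048; 0.12 without the block). Adiponectin, Adipoq, did not pass (log2 -0.32, adjusted p = 0.2). In eWAT with rosiglitazone Agt was lower in K107R, at 22.86 and 22.56 FPKM in WT and 12.35 and 11.73 in K107R (log2 -0.86, adjusted p = 0.0039). There Fgf21 was higher, and Lcn2 and Sfrp5 did not pass.

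Further enzymes of lipid signalling moved singly. Sptlc3, a chain of serine palmitoyltransferase, where sphingolipid synthesis starts, was at 0.686 and 0.754 FPKM in WT and 6.46 and 4.48 in K107R (log2 1.90 ± 0.17 SE, adjusted p = 3.8e-05). Of its list of 25 the kinase Sphk1 (log2 0.68) and the regulator Ormdl3 (0.50) were also higher, while the ceramide synthase Cers6 was lower (-0.65). Without the block Sptlc3 passed and the other 3 did not. The cytochrome Cyp4b1 was at 51.03 and 49.1 FPKM in WT and 99.2 and 84.8 in K107R (log2 0.86 ± 0.10 SE, adjusted p = 0.00043). The soluble epoxide hydrolase Ephx2 was at 86.9 and 74.9 FPKM in WT and 164 and 109.8 in K107R (log2 0.72, adjusted p = 0.028; 0.53 without the block). Ces1f, a carboxylesterase, was lower (log2 -0.89, adjusted p = 0.0076; 0.39 without the block). Pdk2, a brake on glucose oxidation, was the 1 of 26 insulin and glucose genes that passed (27.1 and 23.6 FPKM in WT and 39.97 and 36.2 in K107R; log2 0.57 ± 0.084 SE, adjusted p = 0.002). The clock genes Per1 (log2 0.61) and Ciart (0.37) were higher among 18, and passed only with the block. The antioxidant Gpx3, a secreted glutathione peroxidase, was at 290.4 and 184 FPKM in WT and 591 and 306 in K107R (log2 0.88, adjusted p = 0.031; 0.93 without the block). In eWAT with rosiglitazone the Gpx3 difference was log2 -0.63 (adjusted p = 0.17).

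**Figure D3:**
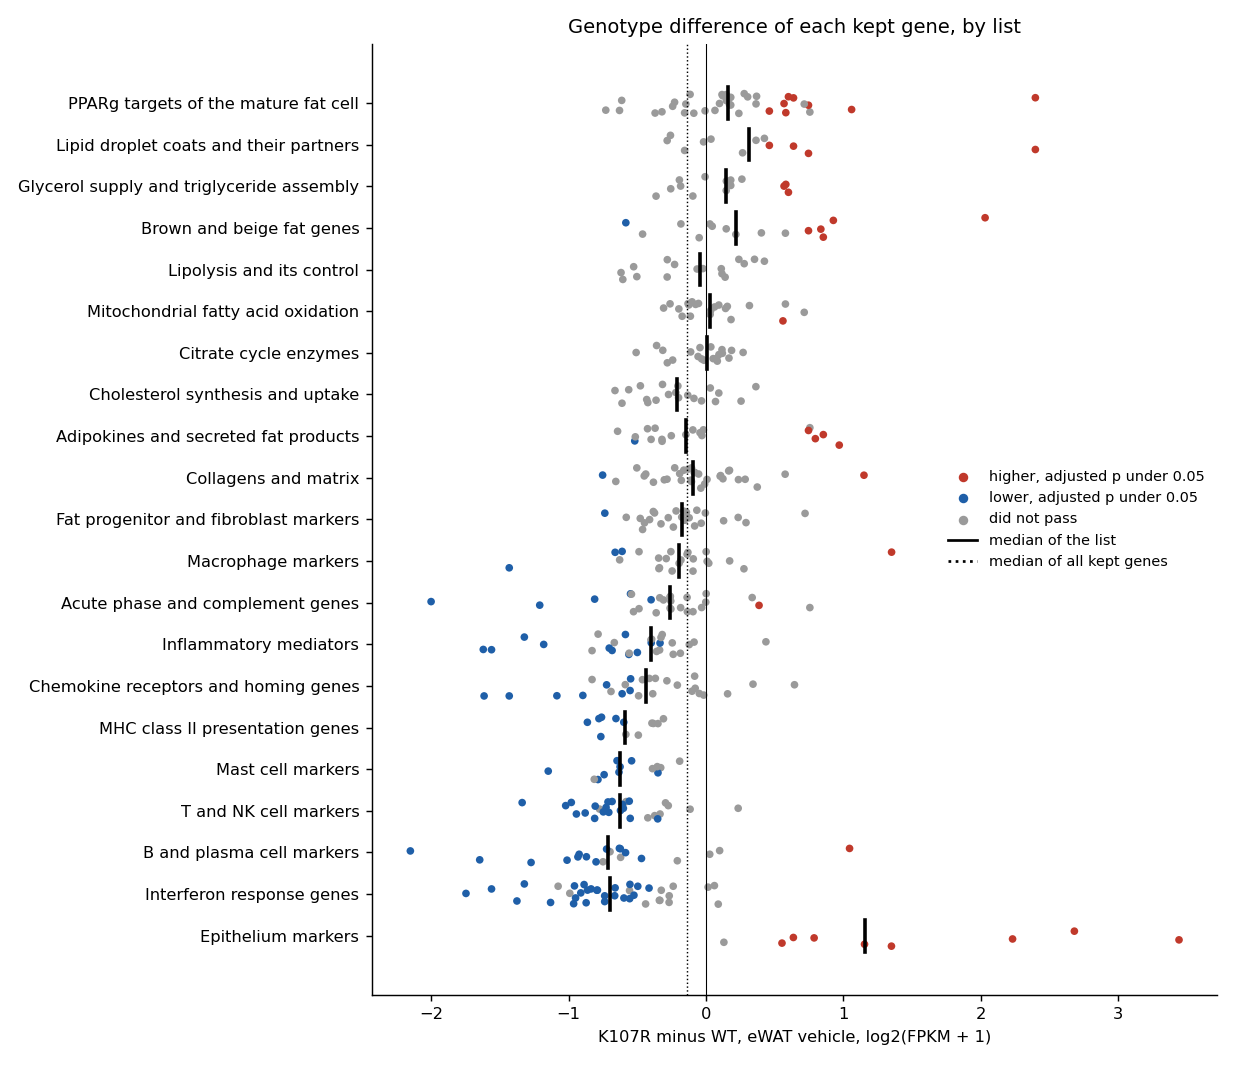
Difference between K107R and WT in log2(FPKM + 1) (x axis) for each kept gene of 21 lists; red and blue points passed as higher and lower, grey points did not pass, bars are list medians and the dotted line is the median of all kept genes, -0.14. PPARg target, droplet and brown fat lists have medians from 0.16 to 0.32, and interferon, lymphocyte and mast cell lists have medians from -0.62 to -0.71.

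Immune genes made up much of the lower side. The 13 immune lists hold 247 kept genes, of which 96 (38.9%, beside 3.62% of all kept genes) were lower and 7 higher, with a median log2 of -0.40; they are 20.4% of all lower genes, and 11 of the 15 largest falls are among them. By number, genes that interferons induce held more lower genes than any other list used here. By share, T and NK cell markers (18 of 27) and B and plasma cell markers (13 of 20) were close to them. Of the 38 interferon genes 25 were lower and 0 higher (median -0.70, and -0.55 after rescaling, when 23 were lower). This count depends on the pairing. Without the block 3 passed, and with 1 of the 4 libraries left out between 9 (without WT number 2) and 12 (without WT number 1).

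Guanylate-binding proteins and interferon-inducible GTPases, which attack the vacuoles of intracellular microbes, were among its largest falls; several have close paralogs whose reads may be split. Gbp2 was at 54.5 and 67.3 FPKM in WT and 27.02 and 34.9 in K107R (log2 -0.96 ± 0.14 SE, adjusted p = 0.0014). Igtp was at 15.5 and 18.1 FPKM in WT and 6.399 and 7.85 in K107R (log2 -1.13 ± 0.11 SE, adjusted p = 6.4e-05). Both genes have K107R values below each WT value and, with Ifi47 (10.02 and 9.41 FPKM in WT and 5.41 and 3.797 in K107R), are the 3 that passed without the block. Iigp1 was at 23.02 and 17.8 FPKM in WT and 6.66 and 4.22 in K107R (log2 -1.75, adjusted p = 0.00039; 0.071 without the block). Gbp6 was at 9.83 and 7.22 FPKM in WT and 3.48 and 1.95 in K107R (log2 -1.38; adjusted p = 0.27 without the block). The chemokines that call T cells were lower as well, Cxcl10 at 8.398 and 5.21 FPKM in WT and 2.28 and 1.04 in K107R (log2 -1.56 ± 0.16 SE, adjusted p = 0.00011; 0.077 without the block). Cxcl9 was at 22.9 and 11.6 FPKM in WT and 10.3 and 3.28 in K107R (log2 -1.32, adjusted p = 0.032; 0.91 without the block). Cxcl9 is high in the number 1 library of each genotype, so its groups come close. The interferon regulatory factors Irf1 (log2 -0.33, adjusted p = 0.13) and Irf7 (-0.34, adjusted p = 0.078) did not pass, nor did Bst2, which tethers virus particles (0.01, adjusted p = 0.96); these 3, Gbp2, Igtp and Ifi47 were picked after their values were seen.

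The start regions of these genes were read because the factors that answer interferon bind a known DNA word there. RefSeq promoters, 250 bases before to 50 after the start (GRCm38.p6), were searched on both strands for GAAANNGAAA, the core letters of the interferon-stimulated response element. It is present in 3.99% of 27025 genes with a promoter, in 3.82% of 9783 kept genes, in 3.30% of the 273 higher genes and in 11.7% of the 342 lower genes. Among interferon list genes 15 of 28 hold it (53.6%), 9 of 16 of those that were lower, and among lower genes outside that list 31 of 326 (9.51%). For 4 genes that were lower, the 250 bases before the start are shown 5′ to 3′ in the direction of the gene, with the matches in capitals (on the other strand the word reads as its reverse complement). The first 3 have the largest falls among matches, and Ifit3, an inhibitor of translation of viral RNA (log2 -0.74, adjusted p = 0.03; 0.33 without the block), has 2 copies.
Cxcl10 (chr5:92348890-92349139, minus strand): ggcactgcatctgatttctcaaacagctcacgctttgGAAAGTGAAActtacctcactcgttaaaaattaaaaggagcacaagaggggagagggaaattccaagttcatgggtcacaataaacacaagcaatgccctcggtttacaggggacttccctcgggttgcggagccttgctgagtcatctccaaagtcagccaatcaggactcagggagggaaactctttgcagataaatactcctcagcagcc
Igtp (chr11:58199306-58199555, plus strand): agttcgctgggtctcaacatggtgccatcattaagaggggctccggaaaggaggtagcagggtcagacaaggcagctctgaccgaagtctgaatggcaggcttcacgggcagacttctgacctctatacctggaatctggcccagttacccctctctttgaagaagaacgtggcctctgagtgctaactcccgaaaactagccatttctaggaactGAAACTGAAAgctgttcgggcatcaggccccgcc
Gbp2 (chr3:142620413-142620662, plus strand): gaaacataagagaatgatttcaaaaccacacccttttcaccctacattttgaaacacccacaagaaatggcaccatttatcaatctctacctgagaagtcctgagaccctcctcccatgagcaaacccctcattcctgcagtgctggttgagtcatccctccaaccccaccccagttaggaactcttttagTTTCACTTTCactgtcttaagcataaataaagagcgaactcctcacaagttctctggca
Ifit3 (chr19:34583279-34583528, plus strand): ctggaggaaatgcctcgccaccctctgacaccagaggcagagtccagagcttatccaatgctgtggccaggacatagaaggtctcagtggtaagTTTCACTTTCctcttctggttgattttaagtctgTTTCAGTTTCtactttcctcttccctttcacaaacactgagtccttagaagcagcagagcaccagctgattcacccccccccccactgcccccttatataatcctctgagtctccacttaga
The word begins 213 bases before the start in Cxcl10, 34 in Igtp, 59 in Gbp2 and 156 in Ifit3. A match describes the letters and does not show a bound site. The word of PPAR and its partner searched in the same way, AGGNCANAGGNCA, is in 0.337% of kept genes, in 1 of 273 higher genes and in 0 of 23 PPARg targets with a promoter in the table.

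Lymphocyte markers held many of the lower genes. Of 27 T and NK cell markers kept, 18 were lower and 0 higher (median -0.62; 8 lower without the block, and between 7 and 10 with 1 library left out, the fewest without K107R number 2 or WT number 2). Nkg7, a protein of killer cell granules, was at 7.03 and 6.38 FPKM in WT and 1.88 and 2.22 in K107R (log2 -1.34 ± 0.20 SE, adjusted p = 0.0019). Lck, the kinase of T cell receptor signalling, was at 3.56 and 4.02 FPKM in WT and 1.32 and 1.39 in K107R (log2 -1.02 ± 0.13 SE, adjusted p = 0.00077). Cd247, a chain of that receptor, was at 4.21 and 4.702 FPKM in WT and 1.79 and 1.73 in K107R (log2 -0.98 ± 0.11 SE, adjusted p = 0.00021). In all 3, both WT libraries stand at more than the level of either K107R library, and all 3 passed without the block. Il2rb, a receptor chain for interleukin 2, was at 4.38 and 3.47 FPKM in WT and 1.701 and 1.41 in K107R (log2 -0.94, adjusted p = 0.00013). A further 8 markers of this list were set aside by the rule and are not counted. At low levels that rule favours lower over higher genes, and its part in these counts was not tested.

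B and plasma cell markers followed: 13 of 20 were lower and 1 higher (median -0.71; 3 lower without the block, and between 5 and 9 with 1 library left out, the fewest without WT number 2). Jchain, which joins antibody units, was at 29.1 and 16.8 FPKM in WT and 7.16 and 2.32 in K107R (log2 -2.15 ± 0.28 SE, adjusted p = 0.00089; 0.13 without the block). Mzb1, a chaperone of plasma cells, was at 6.95 and 5.31 FPKM in WT and 1.62 and 0.9501 in K107R (log2 -1.65 ± 0.14 SE, adjusted p = 3e-05). Ms4a1, the B cell antigen CD20, was at 3.33 and 2.14 FPKM in WT and 0.604 and 0.449 in K107R (log2 -1.27, adjusted p = 0.0072; 0.23 without the block). The one higher gene was Derl3, of the degradation of misfolded proteins, at 2.21 and 2.07 FPKM in WT and 5.87 and 5.12 in K107R (log2 1.04 ± 0.11 SE, adjusted p = 0.00017). Of 24 genes of the unfolded protein and stress response 2 were higher, Fgf21 and Creld2 (log2 0.44, adjusted p = 0.04; 0.94 without the block). Of 9 lymph node stroma markers 3 were lower (1 without the block), among them Ltb, the lymphotoxin that builds lymphoid tissue (5.74 and 5.01 FPKM in WT and 2.35 and 2.39 in K107R; log2 -0.92 ± 0.11 SE, adjusted p = 0.00049), and Cxcl13, which calls B cells (10.5 and 4.69 FPKM in WT and 2.82 and 0.822 in K107R; log2 -1.62, adjusted p = 0.0011; 0.45 without the block). Of 10 dendritic cell markers 2 were lower, Ly6d (log2 -0.98) and Irf4 (-0.80), neither without the block. Summed over 13 lymph node stroma markers, 4 of them set aside, the level was 116 and 111 FPKM in WT and 101 and 114 in K107R, so the sums overlap.

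Antigen presentation and mast cell genes came next. Of 12 MHC class II genes 6 were lower and 0 higher (median -0.59; 2 without the block). H2-Aa, a class II chain, was at 828 and 860.2 FPKM in WT and 487 and 495 in K107R (log2 -0.78 ± 0.10 SE, adjusted p = 0.0011). Ciita, the master regulator of class II, was at 8.33 and 8.44 FPKM in WT and 4.05 and 4.27 in K107R (log2 -0.86 ± 0.11 SE, adjusted p = 0.0008). The values within a genotype are close beside the gap between genotypes. Of 13 mast cell markers 8 were lower and 0 higher (median -0.63; 2 without the block, 2 or 3 with 1 library left out). The chymase Cma1 was at 44.6 and 41.4 FPKM in WT and 26.1 and 24.5 in K107R (log2 -0.74 ± 0.12 SE, adjusted p = 0.0028). The tryptase Tpsab1 was at 13.03 and 11.3 FPKM in WT and 7.44 and 5.87 in K107R (log2 -0.79 ± 0.12 SE, adjusted p = 0.0023). The carboxypeptidase Cpa3 was at 39.7 and 32.1 FPKM in WT and 23.8 and 10.1 in K107R (log2 -1.15, adjusted p = 0.045; 0.78 without the block).

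Macrophage genes did not move as a body. Of 23 markers 3 were lower and 1 higher (median -0.20), and the summed level was 6086 and 7051 FPKM in WT and 5410 and 6071 in K107R, where the higher K107R sum lies just under the lower WT sum. Lower were Ccr2, the receptor that brings monocytes in (20.9 and 13.1 FPKM in WT and 8.74 and 3.36 in K107R; log2 -1.43, adjusted p = 0.004; 0.51 without the block), Fcgr1, an antibody receptor (log2 -0.66, 0.078 without the block), and Cx3cr1, the fractalkine receptor (-0.61, 0.11 without the block). Higher was Itgad, an integrin chain of macrophages, at 12.2 and 13.6 FPKM in WT and 34.02 and 34.8 in K107R (log2 1.35 ± 0.085 SE, adjusted p = 2.4e-06). Of 22 genes of lipid-associated macrophages 2 were higher and 0 lower, Plin2 and Spp1, osteopontin (86.01 and 88.1 FPKM in WT and 122 and 117 in K107R; log2 0.46, adjusted p = 0.015; 0.081 without the block). Of 27 inflammatory mediators 11 were lower and 0 higher (median -0.40; 2 without the block). Besides Cxcl9 and Cxcl10 these were led by Ccl7, a monocyte chemokine (27.4 and 19.5 FPKM in WT and 9.74 and 4.73 in K107R; log2 -1.62, adjusted p = 0.0035; 0.36 without the block), and the gelatinase Mmp9 (4.39 and 3.90 FPKM in WT and 1.39 and 1.15 in K107R; log2 -1.18 ± 0.11 SE, adjusted p = 4.3e-05).

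Lower genes were also found among receptors that guide immune cells and among acute phase genes. Of 26 chemokine receptors and homing genes 8 were lower and 0 higher (0 without the block). Of 26 acute phase and complement genes 5 were lower and 1, Serpina3n, a protease inhibitor, higher (median -0.26; 2 lower and 0 higher without the block). Orm2, an acute phase carrier, was at 10.4 and 11.2 FPKM in WT and 1.68 and 2.22 in K107R (log2 -2.00 ± 0.24 SE, adjusted p = 0.00051). Its relative Orm1 was at 175 and 160.0 FPKM in WT and 78.7 and 65.3 in K107R (log2 -1.21 ± 0.16 SE, adjusted p = 0.00093; 0.078 without the block). The haem scavenger Hpx was at 3.05 and 3.53 FPKM in WT and 1.67 and 1.23 in K107R (log2 -0.81 ± 0.13 SE, adjusted p = 0.0031). Orm1 and Orm2 are near-identical neighbours whose reads the authors' counting could split, so their separate levels are uncertain. Complement factor B, Cfb, was at 161 and 168 FPKM in WT and 110.5 and 114 in K107R (log2 -0.55, adjusted p = 0.0058; 0.067 without the block). Neutrophil markers split, 2 of 12 higher and 2 lower. The iron binder Ltf was at 0.310 and 0.322 FPKM in WT and 4.996 and 4.22 in K107R (log2 2.09 ± 0.094 SE, adjusted p = 1.5e-07). In K107R it was at 0.863 and 1.16 FPKM with rosiglitazone and 0.106 and 0.071 in iWAT. Ltf is thus highest in the libraries that hold epididymis markers, whose part in its level was not tested. Lcn2 was higher too, while Mmp9 and the receptor Csf3r (log2 -0.51, adjusted p = 0.88 without the block) were lower. The 29 cell cycle genes had a median of -0.27 (-0.11 after rescaling), beside -0.14 (0.005) over kept genes, and the difference was negative in 29 of 29, beside 67.2% of kept genes; 2 passed, the kinesin Kif11 (log2 -0.55) and the proliferation marker Mki67 (-0.53), neither of them without the block.

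Few stroma and vessel genes passed. Collagens and matrix had 1 of 32 higher, the cartilage matrix protein Comp (3.23 and 4.86 FPKM in WT and 7.28 and 13.8 in K107R; log2 1.15, adjusted p = 0.0017; 0.13 without the block), and 1 lower, Col8a1 (log2 -0.75; adjusted p = 0.91 without the block). Of 25 progenitor markers F3, tissue factor, was lower (log2 -0.74, adjusted p = 0.026; 0.75 without the block). Endothelial and mural markers had 3 of 28 lower, the receptors of vascular growth factor Kdr (log2 -0.75) and Flt1 (-0.67) and the channel Kcnj8 (-0.43), none of which passed without the block, and 1 higher, Cnn1, a smooth muscle calponin (0.708 and 0.995 FPKM in WT and 3.36 and 3.38 in K107R; log2 1.24 ± 0.15 SE, adjusted p = 0.00041). Of 22 developmental and Hox genes 0 passed, with Hoxb7 (log2 0.69, adjusted p = 0.094) at the smallest p, and of 18 immediate early genes 0, with Egr1 (-0.59, adjusted p = 0.076). Of 14 mesothelial markers 3 were higher, all keratins (Krt18, Krt8 and Krt19) that also stand on the epithelium list. Skeletal muscle markers had 2 of 14 higher, Tnnt3 (log2 1.10) and Tnnc2 (1.06), neither without the block. Summed over the 21 in the table, 7 of them set aside, muscle markers were at 61.9 and 60.4 FPKM in WT and 76.4 and 78.1 in K107R.

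Leaving out microRNA and snoRNA genes, which the naming rule does not name, the 15 largest rises with no overlap of groups are mostly genes whose level was high in the K107R vehicle libraries and low in the other libraries shown. Gstm7, a glutathione transferase, was at 3.301 and 3.16 FPKM in WT and 111 and 93.9 in K107R (log2 4.61 ± 0.12 SE, adjusted p = 3.1e-09), and at 2.63 and 2.14 FPKM in WT and 1.91 and 2.21 in K107R with rosiglitazone. The keratins of simple epithelium Krt18 (1.92 and 2.53 FPKM in WT and 26.1 and 43.9 in K107R) and Krt8 (3.28 and 3.75 FPKM in WT and 23.4 and 33.4 in K107R) show the same gap. Spint2, a protease inhibitor outside the 15 (10.8 and 7.87 FPKM in WT and 53.6 and 41.4 in K107R), does too, and all 3 are epithelium markers. Cyb561, an electron carrier of secretory granules (5.31 and 5.12 FPKM in WT and 50.8 and 42.99 in K107R), Gldc, of glycine cleavage (1.254 and 0.986 FPKM in WT and 17.1 and 14.3 in K107R), and Cited4, a transcriptional coregulator (1.21 and 1.34 FPKM in WT and 10.2 and 19.1 in K107R), belong to the 15. The others are Spink2, Npy, Calml3, Dbil5, Slc7a4, Nupr1l, Plin5, Chrna2 and Gstm6, a close paralog of Gstm7, so reads of that pair may be split. In 13 of the 15, all but Plin5 and Chrna2, the genotype difference in vehicle differed from that with rosiglitazone; this test shares its vehicle libraries with the choice of the 15. The summed epididymis markers, 5237 and 4632 FPKM in K107R vehicle and at most 49.0 in the other eWAT libraries, move with these genes, and their part in the result was not tested.

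The largest falls were of another kind. Rps27, a ribosomal protein gene with many near-identical copies, headed them (1302 and 762 FPKM in WT and 117 and 172 in K107R; log2 -2.80, adjusted p = 0.0022), and its level is uncertain since reads can be shared between copies. Then came Jchain, Orm2, Iigp1 and Il4i1, an amino acid oxidase of immune cells (2.302 and 3.601 FPKM in WT and 0.2096 and 0.126 in K107R; log2 -1.74, adjusted p = 0.011; 0.093 without the block). Art2a-ps, named as a pseudogene of a T cell ectoenzyme family (-1.73), and Gbp2b (-1.58; adjusted p = 0.074 without the block) followed.

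Whether these differences are also seen between the genotypes elsewhere was read from 2 comparisons that share no library with this one, though all are in 1 fit. The set-aside rule, however, used the rosiglitazone eWAT libraries. It removed 289 genes higher in K107R vehicle that were low with rosiglitazone. The share of higher genes found again with rosiglitazone thus follows in part from the rule. In eWAT with rosiglitazone 248 kept genes (1.91%) were higher in K107R and 211 (1.62%) lower, and in iWAT on vehicle 100 (0.769%) and 129 (0.993%). Of the 363 genes higher in eWAT vehicle, 73 were higher with rosiglitazone, 20.1% of the one list and 29.4% of the other, and 13 were lower. Of the same 363 genes, 49 were higher in iWAT, 13.5% and 49.0% of the lists, and 3 were lower. Of the 471 lower genes, 59 (12.5% and 28.0%) were lower with rosiglitazone and 6 higher, and 64 (13.6% and 49.6%) were lower in iWAT and 1 higher. By sign alone, 397 of the 471 lower genes were negative with rosiglitazone and 430 in iWAT, while 235 and 208 of the 363 higher genes were positive; over all kept genes 47.96% and 66.8% were negative.

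**Figure D4:**
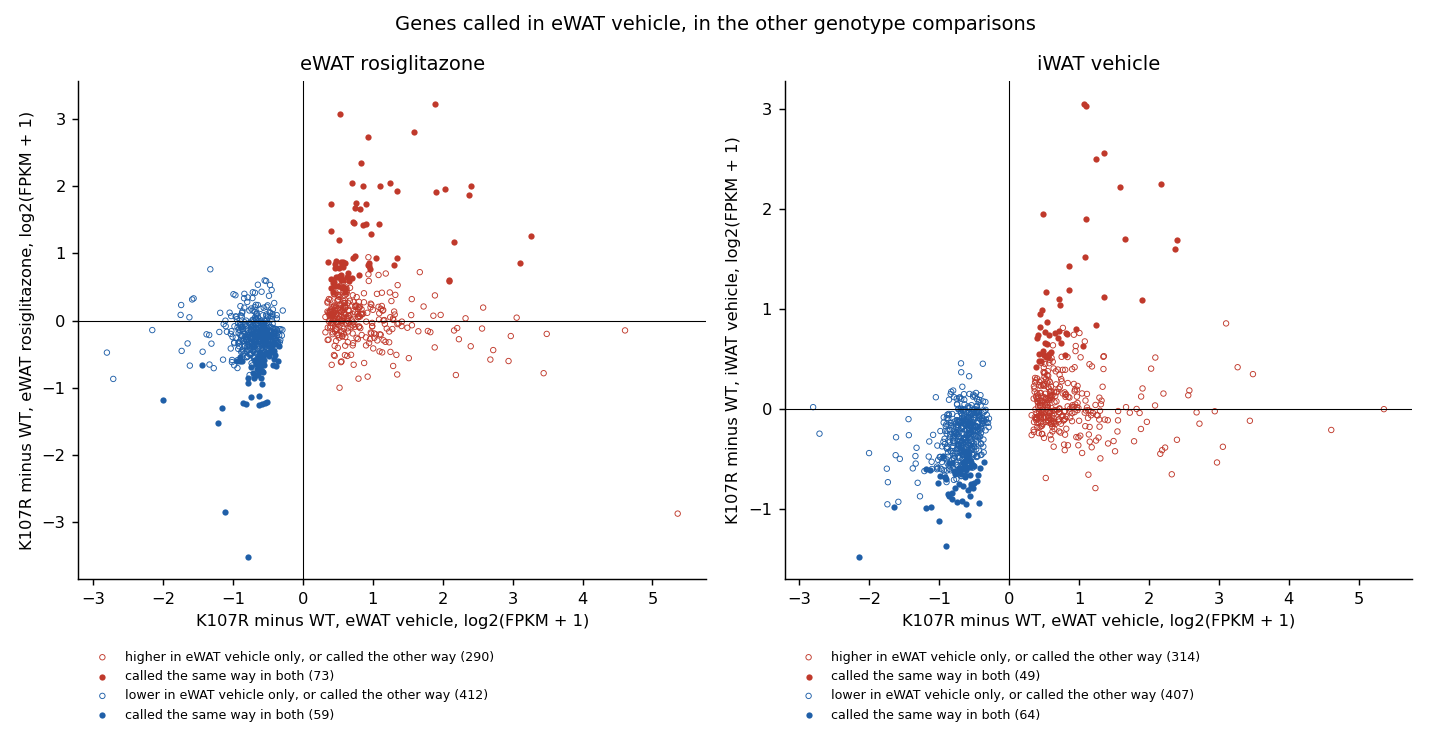
Genotype difference of the 834 genes that passed in eWAT vehicle (x axis) against that in eWAT with rosiglitazone (left) and in iWAT on vehicle (right), in log2(FPKM + 1); filled points passed in the same direction in both. Filled red points number 73 and 49 and filled blue points 59 and 64, and most of the genes past 2 on the x axis are open points.

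In all 3 comparisons 32 genes were higher in K107R and 10 lower. In eWAT vehicle their differences ran from 0.40 to 2.40 and from -1.12 to -0.43; 12 and 5 of them passed there without the block, and 30 and 5 after rescaling. Plin5 heads the higher ones, with 11.1 and 17.1 FPKM in WT and 51.03 and 67.1 in K107R with rosiglitazone and 15.1 and 20.5 FPKM in WT and 47.7 and 73.5 in K107R in iWAT. Acacb, Ehhadh, Ephx2, Cyp4b1, Gpd1, Pltp, a phospholipid transfer protein (log2 0.44 in eWAT vehicle, adjusted p = 0.021; 0.092 without the block), and Sptlc3 belong to the same 32.

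Among the others of the 32, Fgf21 was at 2.42 and 1.95 FPKM in WT and 12.5 and 11.1 in K107R with rosiglitazone and 2.02 and 1.704 FPKM in WT and 7.02 and 6.42 in K107R in iWAT. Chrna2, an acetylcholine receptor subunit tied to beige fat, was at 0.902 and 0.997 FPKM in WT and 10.2 and 8.19 in K107R in eWAT vehicle (log2 2.38 ± 0.14 SE, adjusted p = 1.4e-06), 3.44 and 3.36 FPKM in WT and 14.6 and 15.5 in K107R with rosiglitazone and 1.28 and 1.34 FPKM in WT and 6.83 and 5.29 in K107R in iWAT. The gut hormone Cck was at 1.77 and 1.68 FPKM in WT and 10.2 and 12.4 in K107R (log2 2.17 ± 0.20 SE, adjusted p = 6.4e-05), 0.218 and 0.245 FPKM in WT and 1.55 and 2.03 in K107R and 0.345 and 0.531 FPKM in WT and 7.23 and 4.65 in K107R in the same order. All 3 have K107R above WT in each of the comparisons. Mc5r, a melanocortin receptor, Gnao1, a G protein subunit, and Cacng5 and Scnn1g, channel subunits, were also higher in all 3. Of these, Mc5r, Cacng5 and Scnn1g stayed under 1 FPKM in each WT library shown. The rule kept them only through the K107R rosiglitazone libraries, so their place here follows in part from the rule. Scnn1g is near the floor in eWAT vehicle, at 0.048 and 0.034 FPKM in WT and 0.42 and 0.34 in K107R. Itgad was at 9.99 and 11.7 FPKM in WT and 42.3 and 46.1 in K107R with rosiglitazone and 8.18 and 9.003 FPKM in WT and 53.9 and 57.5 in K107R in iWAT, where its difference (log2 2.56) was larger than in eWAT vehicle (adjusted p = 0.00013 for the difference between depots).

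**Figure D5:**
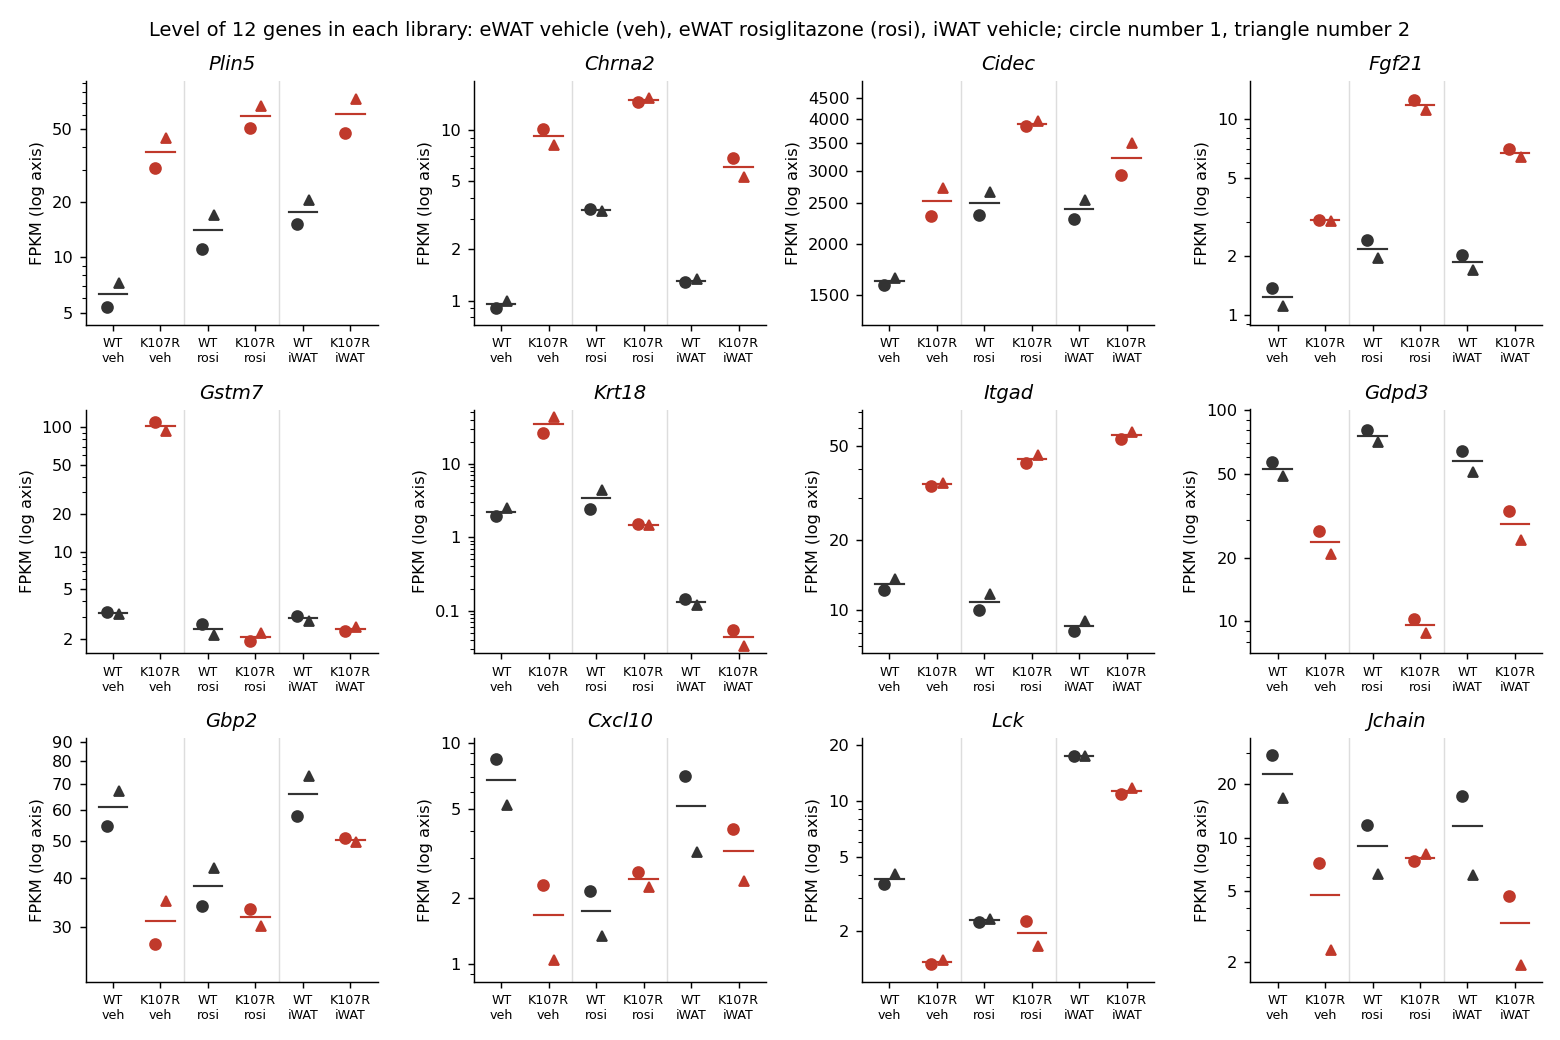
Level of 12 genes in FPKM (log axis) in each library, with lines at the group means; black is WT, red K107R, circles are number 1 and triangles number 2. Plin5, Chrna2, Fgf21 and Itgad are higher and Gdpd3 lower in K107R in all 3 comparisons, Gstm7 and Krt18 are high only in the K107R vehicle libraries of eWAT, and Gbp2 and Cxcl10 are lower in both K107R vehicle libraries of eWAT than in either WT library.

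The 10 genes lower in all 3 were Gdpd3, Ces1g, Kcnj14, Kcnj8, Rasd1, Syt15, Trf, Cfb, Aif1 and Cd22. Gdpd3, a phosphodiesterase of lysophospholipids, was at 56.6 and 48.8 FPKM in WT and 26.8 and 20.9 in K107R (log2 -1.12 ± 0.092 SE, adjusted p = 2.2e-05), 80.4 and 70.1 FPKM in WT and 10.3 and 8.84 in K107R with rosiglitazone and 64.1 and 50.9 FPKM in WT and 33.2 and 24.3 in K107R in iWAT. Ces1g, a carboxylesterase, was at 1.07 and 0.826 FPKM in WT and 0.0435 and 0.0469 in K107R (log2 -0.90 ± 0.094 SE, adjusted p = 0.00015), and again low in K107R iWAT (2.31 and 1.48 FPKM in WT and 0.157 and 0.0686 in K107R). The iron carrier transferrin, Trf, was at 604 and 728 FPKM in WT and 435 and 436 in K107R (log2 -0.61, adjusted p = 0.0029; 0.11 without the block). Aif1 is a gene of macrophages (log2 -0.71), and Cd22 a lectin of B cells (-0.62). Gdpd3, Ces1g, Kcnj14, Rasd1 and Aif1 passed without the block in eWAT vehicle.

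Immune lists were counted in the 2 other comparisons too, and those given here are not all of them. Tests of the difference from vehicle or from iWAT share the eWAT vehicle libraries. Interferon list genes had a median log2 of 0.06 between the genotypes with rosiglitazone (1 higher, 0 lower) and -0.48 in iWAT (7 lower). The difference between vehicle and rosiglitazone passed for 11 of the 38, among them Cxcl10 (adjusted p = 0.00048) and Iigp1 (0.0044), and the difference between depots for 1, Cxcl10 (0.027); over all kept genes these differences passed for 308 (2.37%) and 180 (1.39%). With rosiglitazone Cxcl10 was at 2.14 and 1.34 FPKM in WT and 2.61 and 2.23 in K107R, with both K107R values above both WT values. T and NK cell markers had medians of -0.16 with rosiglitazone (1 lower) and -0.38 in iWAT (4 lower), and the difference from vehicle passed for 4 of 27 with rosiglitazone and 0 of 27 in iWAT. B and plasma cell markers had medians of -0.34 and -0.60. Mast cell markers were lower in K107R in 9 of 13 with rosiglitazone (median -0.79), among them Tpsab1 at 39.5 and 36.8 FPKM in WT and 2.37 and 2.49 in K107R, and in 0 of 13 in iWAT (median -0.11); the difference from vehicle passed for 2 and 0 of the 13. MHC class II genes were lower in 3 of 12 in each, and the difference passed for 0 of 12 in both. Acute phase and complement genes were lower in 11 of 26 with rosiglitazone and 2 in iWAT, and the difference passed for 1 of 26 in each. Of 27 inflammatory mediators 1 was lower and 1 higher with rosiglitazone (median -0.01), and the difference from vehicle passed for 5. Of 12 neutrophil markers 6 were higher and 0 lower with rosiglitazone (median 0.67), and that difference passed for 6. Of 23 macrophage markers 5 were lower and 1 higher with rosiglitazone (median -0.28), and it passed for 1.

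PPARg targets were higher with rosiglitazone in 8 of 36, with 1 lower (median 0.42), and in iWAT in 4 (median 0.12). The lower one is Fabp4, a fatty acid carrier at 18777 and 14168 FPKM in WT vehicle and 20369 and 16560.0 in K107R vehicle, which is listed at 0 in both K107R rosiglitazone libraries and in all 4 iWAT vehicle libraries; such a 0 in fat can be a failed estimate. Brown and beige genes had a median of 1.66 with rosiglitazone and 10 of 15 higher, beside 0.22 and 5 in vehicle; the difference between the 2 passed for 6 of 15. Elovl3, for one, was at 0.353 and 0.365 FPKM in WT and 2.15 and 1.12 in K107R in vehicle and 2.47 and 1.75 FPKM in WT and 18.6 and 20.5 in K107R with rosiglitazone (adjusted p = 0.0019 for the difference). Lipid droplet genes were higher in 5 of 12 with rosiglitazone, and the difference from vehicle passed for 0 of 12.

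The response of WT eWAT to rosiglitazone shares the WT vehicle libraries with this comparison, so values are set side by side and no more. WT rosiglitazone eWAT had 11.1 and 17.1 FPKM of Plin5, 2339 and 2663 of Cidec, 770.0 and 762 of Gpd1 and 2.42 and 1.95 of Fgf21. K107R vehicle eWAT had 30.9 and 44.6, 2329 and 2727, 616 and 611 and 3.07 and 3.03. For the immune genes Gbp2, Cxcl10, Lck and Mmp9, WT rosiglitazone eWAT had 33.8 and 42.5, 2.14 and 1.34, 2.23 and 2.31 and 1.06 and 0.982 FPKM, and K107R vehicle eWAT 27.02 and 34.9, 2.28 and 1.04, 1.32 and 1.39 and 1.39 and 1.15. WT vehicle eWAT stood above both for these 4 genes. For Tpsab1 the order differed, with 39.5 and 36.8 in WT rosiglitazone, 13.03 and 11.3 in WT vehicle and 7.44 and 5.87 in K107R vehicle. Lcn2 and Cck went the opposite ways. Lcn2 had 7.90 and 7.10 in WT rosiglitazone, 14.2 and 14.8 in WT vehicle and 27.96 and 30.7 in K107R vehicle. Cck had 0.218 and 0.245, 1.77 and 1.68 and 10.2 and 12.4 in the same order. The genes set side by side are a few, picked with earlier results known, and do not show that the 2 groups are alike.

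Library depth is unknown, since FPKM keeps no count of reads. Over the 4 libraries FPKM summed to between 523584 and 596519, and between 12063 and 12898 genes reached 1 FPKM. Median FPKM was 9.58 and 7.87 in WT and 9.495 and 6.21 in K107R, lower in the number 2 library of each genotype. Erythrocyte genes summed to 557 and 703 FPKM in WT and 781 and 915 in K107R, and of 8 kept 1, Hba-a1, a globin chain, was higher (log2 0.53, adjusted p = 0.0071; 0.16 without the block).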

How the data were processed

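Polyadenylated RNA of whole fat was sequenced with a stranded kit as single 75-base reads, per the labels' protocols. FPKM per gene was deposited by the authors; CASAVA 1.8.2, TopHat2 2.0.12, Cufflinks 2.2.1 and mm10 are named in the submitters' processing notes, and the annotation, strand setting and scaling between libraries are not given in the sources used here. Such steps can fail for single genes, as where an abundant gene is listed at 0.

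Values were taken as log2(FPKM + 1). Genes at 1 FPKM or more in at least 2 libraries (13669) were fitted with limma 3.58.1 in R 4.3.3, with a trend, 8 group means and the replicate number as a block over 16 libraries; p-values were Benjamini-Hochberg adjusted over all of them. The labels do not say what the number marks. It was used because same-numbered libraries deviated together in all 28 pairs of groups (r from 0.121 to 0.791, across genes). Pairs that include eWAT K107R rosiglitazone had the weakest r, from 0.121 to 0.281, and the other pairs had r from 0.501 to 0.791. Named genes were the 15 largest changes each way that passed, with groups that do not overlap and a higher mean of at least 2 FPKM, then up to 4 passing members of each list, or, where none passed, the 2 with the smallest p. MicroRNA, snoRNA and predicted genes and those listed at 0 were not named. The 6 highest set-aside genes and Pparg were added, and genes shared by all 3 comparisons are given as counted there. Adipoq, Plin1, Plin4, Rbp4, Kng2, Fabp4, Pdzk1ip1, Serpina3n, Ifit3, Gbp2, Igtp, Ifi47, Irf1, Irf7 and Bst2 fall outside these rules and were chosen with their values known. Members and lists were chosen with earlier results of these data known. Alternatives changed the block, libraries, filter, pseudocount (0.1 FPKM), scaling and library weights. Depth is unknown. Positions are from GENCODE (GRCm38) and promoters from RefSeq (GRCm38.p6).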

Additional observations from a re-analysis of the deposited data

Results flagged for a closer look

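For 30 named genes the genotype difference in eWAT differed from that in iWAT, both on vehicle (limma, adjusted p under 0.05 for the difference between depots, n = 2 libraries a group). The eWAT side shares its libraries with the comparison that chose these genes. Values are the log2 difference in eWAT minus that in iWAT. The largest positive values were those of Gstm7 (4.82), Krt18 (3.56), Gldc (3.51), Spink2 (3.14), Gstm6 (2.98) and Cyb561 (2.96). Next came Cited4 (2.87), Npy (2.85), Krt8 (2.71), Nupr1l (2.71), Spint2 (2.62) and Slc7a4 (2.42). Positive differences followed for Dbil5 (2.39), Calml3 (2.25), Ltf (2.05), Fads2 (1.81), Cited1 (1.63) and Cnn1 (1.56). Smaller positive differences belonged to Derl3 (1.48), Hba-a1 (1.21), Agt (1.21), Krt14 (0.95), Lcn2 (0.78) and Plin5 (0.70). Negative values were those of Rps27 (-2.82), Tnnc2 (-1.99), Tnnt3 (-1.93), Orm2 (-1.56), Itgad (-1.21) and Cxcl10 (-1.06). Of these, Tnnc2, Tnnt3 and Itgad were higher in K107R in both depots and more so in iWAT (Tnnt3 log2 1.10 in eWAT and 3.03 in iWAT). Epididymis and epithelium markers are high in the K107R vehicle libraries of eWAT. Skeletal muscle markers are high in those of iWAT, where they summed to 117 and 104 FPKM in WT and 248 and 238 in K107R. The part of these markers in the values above was not tested.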

How the results depend on the processing

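Counts over kept genes moved with the design and with the scale of the values. Of the 363 higher and 471 lower genes, 128 and 60 were counted without the replicate block, where higher genes made up 68.1% of those passing against 43.5% with it. A fit to eWAT alone gave 213 higher, the 4 vehicle libraries alone 1140 lower, a block for each depot 607 and 1638, and rescaling by the median ratio 869 and 1044. Leaving out 1 library gave from 158 to 541 higher and from 88 to 882 lower, with the 882 lower found without K107R rosiglitazone number 2. The difference between depots passed for 75 genes without the block and 309 after rescaling, against 180, and for 97 to 238 with 1 library left out, the fewest without WT vehicle number 2 (97) or number 1 (101). The difference between vehicle and rosiglitazone passed for 103 and 559, against 308, and for 161 to 314 with 1 library left out, the fewest without WT vehicle number 2 (161) or number 1 (179). The cause of these shifts was not tested. Pparg, at -0.24, ran from -0.49 without WT vehicle number 1 to 0.002 without WT vehicle number 2. Of 106 named genes that passed, 45 passed under all 14 alternatives and 58 did not pass without the block. The files give no counts, so what depth limits is unknown, and 2 libraries a group limit precision.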
